A study of Mus musculus with 6 samples.

Results

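Of 10875 genes that averaged 100 or more counts in the primary somatosensory (S1) cortex, 228 were lower in every library of cortex with whisker stimulation (WS) than in every library of cortex without it (NS). These 228 genes were chosen by 3 conditions on the same WS and NS libraries. The mean count over the 6 libraries was at least 100, all 3 WS values in CPM, counts scaled to the same total in each library, lay below all 3 NS values, and the log2 ratio of the mean WS to the mean NS CPM was -0.12 or less. The table listed 14824 genes in all. The share called was 2.10% of the genes of sufficient count, and the mirrored rule for genes higher in WS called 229, or 2.11%. With the same-numbered libraries compared as pairs in place of all WS with all NS, 405 genes met the conditions. Random ordering of so few libraries also gives such genes, and how many was not computed. Because WS and NS values chose the genes, their levels below are a description, and no test of WS against NS is offered in their support.

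The 6 libraries came from S1 cortex of wild-type mice at postnatal day 21, of a strain labelled C57B6, with 3 NS and 3 WS samples. Whiskers were brushed daily over the third postnatal week, and tissue was taken 90 min after the last stimulation. In the study's paradigm the whiskers of 1 side were brushed and the barrel cortex that received no stimulation, on the other side of the brain, served as NS, while the labels of the NS samples give no treatment. Which NS and WS libraries came from the same mouse is not given in the sources used here. Each library held between 15660389 and 17276169 counts over the listed genes. Whole cortex was used, so each value mixes neurons, glia and vessel cells, and fewer cells of a type and less RNA per cell cannot be told apart. All 9 markers of excitatory neurons, all 9 of upper layers and all 17 of deep layers were listed.

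S1 cortex receives whisker input through the thalamus, in a map of barrels with a column for each whisker. Firing of its neurons induces transcription of immediate early genes and then of effector genes within hours. Transcripts that decline with activity are less well known, since a steady level of RNA reflects both synthesis and decay, and a stable transcript declines slowly even when synthesis stops.

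The 228 genes differed from NS by small amounts. Their log2 ratio ran from -0.37 for Ovol2 to -0.12, with a median of -0.16 and quartiles of -0.20 and -0.14, and the median change was -10.6%. Of the 228, 53 had a log2 ratio of -0.2 or less and 11 of -0.3 or less. Among all 10875 genes the median log2 ratio was -0.0021, with quartiles of -0.057 and 0.061. Summed over the 228 genes, the NS libraries held between 22181 and 22909 CPM and the WS libraries between 19245 and 20812 CPM.

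The separation between groups was narrow for most of them. The distance from the lowest NS to the highest WS library had a median of 0.034 on the log2 scale and was under 0.05 in 153 of the 228 genes. Its widest value, 0.18, belonged to Rfc5, which encodes a subunit of the clamp loader of DNA replication. Without any limit on size, 379 genes had all WS below all NS values (3.49%) and 287 had all WS above (2.64%). Random ordering of the libraries would also separate some genes fully, and that number was not computed, so neither share stands for an excess. When overlap was allowed, 806 genes had a log2 ratio of -0.12 or less (7.41%) and 1134 of 0.12 or more (10.4%).

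**Figure D1:**
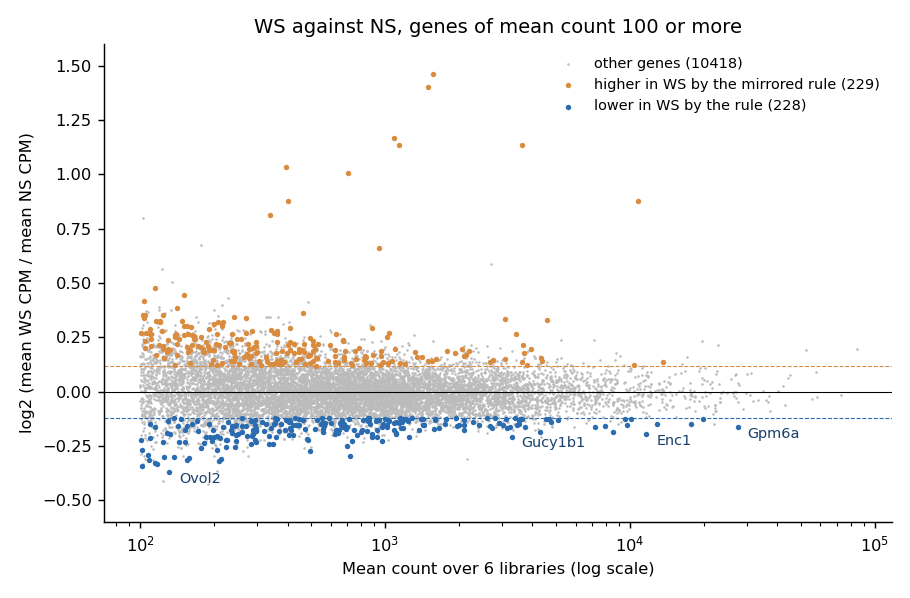
Log2 ratio of mean WS to mean NS CPM (vertical axis) against the mean count over 6 libraries (horizontal axis, log scale) for 10875 genes. Blue points are the 228 genes lower in WS, orange points the 229 genes of the mirrored rule, grey points all others, and dashed lines the limits of -0.12 and 0.12. The blue points stay close to their limit, down to -0.37, while some orange points reach 1.46.

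The plot of ratio against count shows that the lower genes form a thin band under the limit at all counts. Of 2826 genes with a mean count of 100 to 300, 73 were in the group (2.58%), with a median log2 ratio of -0.20. Of 3841 genes with a mean count of 1000 or more, 73 were in it (1.90%), with a median of -0.15. The mirrored rule called 105 and 40 genes in these ranges. Just inside the limit lay Tox4, Zfand5 and Myl12a, with log2 ratios between -0.1206 and -0.1202, and just outside lay Tmem62, Sec23b and Eny2, with ratios between -0.1195 and -0.1179. A larger ratio did not suffice where groups overlapped. The protocadherin Pcdhgb5, for example, had a log2 ratio of -0.43, but its WS libraries reached 11.8 CPM and its lowest NS library 10.9 CPM.

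Ovol2 had the lowest ratio of the group. It encodes a zinc finger transcription factor that maintains epithelial identity. Its levels were 8.39, 8.34 and 10.7 CPM in NS replicates 1 to 3 and 7.12, 8.03 and 6.07 CPM in WS replicates 1 to 3, a log2 ratio of -0.37. NS replicate 3 was the high library and WS replicate 3 the low one, and the remaining libraries lay between 7.12 and 8.39 CPM.

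The 11 genes that followed had log2 ratios between -0.34 and -0.30. Lyar, a nucleolar protein of ribosomal RNA processing, measured 8.14, 6.72 and 8.87 CPM in NS and 5.67, 6.54 and 6.70 CPM in WS, so that NS replicate 2 and WS replicate 3 almost touched. Prdx4, a peroxiredoxin of the endoplasmic reticulum, measured 13.4, 13.5 and 16.4 CPM in NS and 9.84, 11.95 and 12.9 CPM in WS. Rfc5 measured 11.5, 10.3 and 10.2 CPM in NS and 8.39, 9.03 and 8.36 CPM in WS, with NS replicate 1 the high library. Ccdc65, part of the dynein regulatory complex of motile cilia, measured 8.89, 7.35 and 8.06 CPM in NS and 6.77, 5.67 and 6.83 CPM in WS.

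Fam19a1, which encodes a secreted chemokine-like protein of neurons, was highest in NS replicate 1. It measured 57.9, 43.4 and 46.1 CPM in NS and 38.9, 42.7 and 38.4 CPM in WS. The rest of these 12 were Zbed5 (log2 ratio -0.34), Lyplal1 (-0.31), the sorting nexin Snx7 (-0.31), Ccdc126 (-0.30), the mitochondrial aldehyde dehydrogenase Aldh1b1 (-0.30) and Mad2l1bp (-0.30), whose product silences the spindle checkpoint. Lyplal1 measured 8.89, 6.85 and 6.56 CPM in NS and 5.96, 6.23 and 5.75 CPM in WS, with NS replicate 1 the high library, and Aldh1b1 measured 8.96, 8.65 and 8.06 CPM in NS and 7.70, 7.84 and 5.30 CPM in WS, with WS replicate 3 the low one. Leaving out 1 library moved the value of 5 of the 12 by over 1.5 times. By edgeR, the log2 fold change went from -0.31 to -0.16 for Lyplal1 and from -0.29 to -0.16 for Fam19a1 without NS replicate 1. It went from -0.29 to -0.125 for Aldh1b1 and from -0.29 to -0.20 for Mad2l1bp without WS replicate 3, and from -0.36 to -0.24 for Ovol2 without NS replicate 3. Counts were low in most of these genes, with mean counts from 101 upward across the group.

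**Figure D2:**
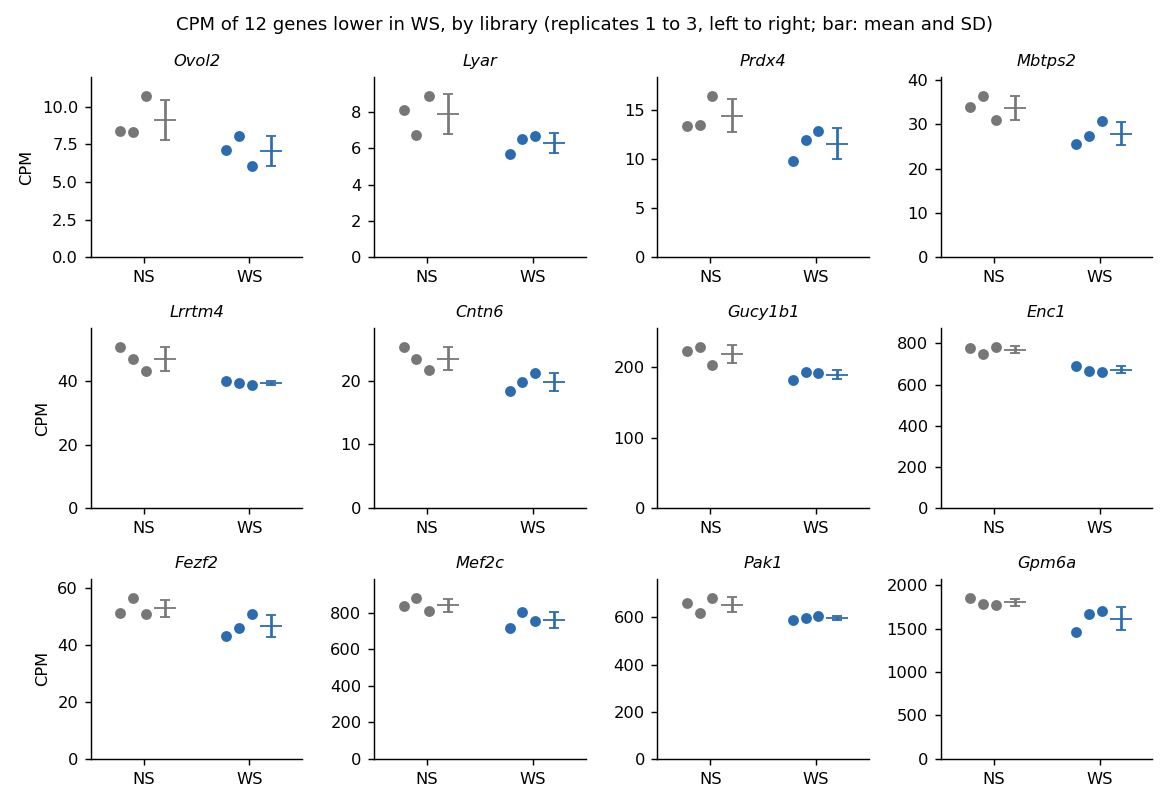
CPM (vertical axes, starting at 0) of 12 of the genes lower in WS in each library, with NS replicates 1 to 3 in grey and WS replicates 1 to 3 in blue, and a bar for the mean and SD of each group of 3. In each panel all blue points lie below all grey ones, which the choice of genes required, and in Mef2c, Fezf2 and Lyar the nearest points almost touch.

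Among the 10 genes with the most counts were Gpm6a, Ywhah, Serinc1, Mef2c, Enc1, Pak1, Rasgrp1, Sv2b and Atp6v1a. Gpm6a, a neuronal membrane glycoprotein that promotes filopodia, measured 1849.8, 1785 and 1773 CPM in NS and 1460.5, 1666 and 1707 CPM in WS, a log2 ratio of -0.16. WS replicate 1 stood below the other 5 libraries. Enc1, an actin-binding kelch protein of cortical neurons, separated more evenly, with 776, 751 and 781 CPM in NS and 690.5, 667 and 660.1 CPM in WS (log2 ratio -0.19).

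Rasgrp1 and Pak1 act in signalling downstream of surface receptors. Rasgrp1, a Ras exchange factor activated by diacylglycerol, measured 609, 646 and 601 CPM in NS and 511, 597 and 593 CPM in WS (log2 ratio -0.13), and its WS replicates 2 and 3 lay just under NS replicate 3. Pak1, a kinase that acts on actin downstream of Rac and Cdc42, measured 659.7, 619 and 681.5 CPM in NS and 589.9, 599.6 and 607 CPM in WS (log2 ratio -0.13). The paralogs of Pak1 did not share its value, with log2 ratios of 0.029 for Pak2 and -0.062 for Pak3.

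Mef2c, an activity-regulated transcription factor of excitatory neurons, measured 836, 879.9 and 807 CPM in NS and 717, 806 and 754 CPM in WS (log2 ratio -0.15). WS replicate 2 came within 0.003 of NS replicate 3 on the log2 scale. The related Mef2a and Mef2d were at -0.066 and -0.014. Ywhah, a 14-3-3 adaptor protein, measured 1297, 1234 and 1309 CPM in NS and 1188, 1223 and 1106 CPM in WS (log2 ratio -0.13). The membrane protein Serinc1 was at -0.15, the synaptic vesicle glycoprotein Sv2b at -0.19 and Atp6v1a, the catalytic subunit of the vacuolar proton pump, at -0.16.

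Promoter letters were read for the 192 of 228 genes with a window in the RefSeq promoter table (GRCm38.p6), 250 bases upstream of the start. Both strands were searched for the E-box CACGTG, which bHLH factors such as CLOCK and MYC bind, for the cAMP response element TGACGTCA (CRE), for its core TGACG, for TATAAA, and for ACGTG, the core of the hypoxia element. Every E-box holds ACGTG and every CRE holds TGACG. An E-box was present in 26 windows (13.5%), against 8.82% of the 8752 windows of all genes of sufficient count and 10.4% of those of the mirrored rule. A CRE was present in 7 (3.65%), against 2.95% of all and 2.60% of the mirrored set. TGACG was present in 32.3%, against 28.1% of all and 15.1% of the mirrored set. TATAAA was present in 7.29%, against 5.61% and 6.25%, and ACGTG in 26.6%, against 22.6% and 19.8%. RefSeq starts can differ from the outermost GENCODE start, and of 191 windows with a GENCODE gene, 24 lay wholly and 59 partly inside its span. Each share is a description of letters in these windows and carries no test. The 4 windows below were picked once the matches were known, as those of Ywhah, Pak1 and Atp6v1a, which are among the 10 genes with the most counts, and of the clock repressor gene Cry1. Capitals mark each CRE or E-box.
Ywhah, chr5:33018566-33018815, plus strand: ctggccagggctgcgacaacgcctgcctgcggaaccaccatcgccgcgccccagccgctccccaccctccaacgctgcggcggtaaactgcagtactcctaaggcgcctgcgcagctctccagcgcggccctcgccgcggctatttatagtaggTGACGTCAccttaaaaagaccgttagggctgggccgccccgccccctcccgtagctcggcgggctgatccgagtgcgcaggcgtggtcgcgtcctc
Pak1, chr7:97788291-97788540, plus strand: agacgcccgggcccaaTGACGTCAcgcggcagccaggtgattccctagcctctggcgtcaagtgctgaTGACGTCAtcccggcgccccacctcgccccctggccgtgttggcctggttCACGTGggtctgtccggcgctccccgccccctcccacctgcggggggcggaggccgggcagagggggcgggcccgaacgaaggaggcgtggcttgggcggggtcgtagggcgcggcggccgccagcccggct
Atp6v1a, chr16:44139260-44139509, minus strand: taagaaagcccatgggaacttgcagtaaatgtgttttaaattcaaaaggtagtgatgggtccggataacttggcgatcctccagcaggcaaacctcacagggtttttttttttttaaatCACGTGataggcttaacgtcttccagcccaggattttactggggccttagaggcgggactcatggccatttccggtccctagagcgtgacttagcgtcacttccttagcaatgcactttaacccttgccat
Cry1, chr10:85185055-85185304, minus strand: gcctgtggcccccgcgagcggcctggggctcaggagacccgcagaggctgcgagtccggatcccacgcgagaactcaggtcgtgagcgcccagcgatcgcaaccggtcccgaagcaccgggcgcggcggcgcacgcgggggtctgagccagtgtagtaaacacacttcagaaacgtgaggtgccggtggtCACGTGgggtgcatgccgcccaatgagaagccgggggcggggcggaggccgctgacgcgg

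The windows of Ywhah and Pak1 hold a CRE, in Pak1 at more than 1 place and together with an E-box, and those of Atp6v1a and Cry1 hold an E-box. The Atp6v1a window lies wholly inside the GENCODE span of its gene, downstream of the outermost start, and the Cry1 window overlaps its gene's span at one end. Cry1, which represses CLOCK and its partner in the circadian loop, measured 20.1, 20.1 and 21.1 CPM in NS and 17.8, 18.5 and 19.3 CPM in WS, a log2 ratio of -0.14. It was the only 1 of 18 clock genes of sufficient count in the group, and the list's median was 0.012. Arntl, the partner of CLOCK, had a log2 ratio of -0.20 but was not in the group, since 37.9 CPM in WS replicate 1 exceeded 36.4 CPM in NS replicate 3.

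The functional lists described next were drawn up with many of these genes already known to be lower, so the counts show what the group holds and support nothing about a pathway. Beside the counts of ratios below 0 stand 50.9% of all genes of sufficient count. Beside the counts of genes in the group stand 2.10% of all genes, or 1.66% with the trend on GC content and length removed, a step described further on. Among neuronal genes that step kept 3 of the 6 genes of synaptic adhesion, 3 of the 7 of synaptic vesicles, 0 of the 2 of receptors and Homer scaffolds and 1 of the 3 of cyclic GMP signalling. Of the genes of the nucleus it kept 2 of the 5 of ribosome assembly, 1 of the 3 of splicing, 2 of the 6 of nuclear transport and 5 of the 7 of replication and mitosis. It also kept 9 of the 15 mitochondrial factors, 2 of the 3 aminoacyl-tRNA synthetases, 2 of the 9 genes of the endoplasmic reticulum, 2 of the 4 of the proton pump and Rag GTPases, 1 of the 3 of the Arp2/3 list and 0 of the 3 of autophagy. Ribosome assembly and splicing each gained 2 other genes under it, and the mitochondrial list gained 1. Of 45 synaptic adhesion genes and synapse organisers of sufficient count, 6 were in the group and 33 had a ratio below 0, with a median of -0.030. Lrrtm4, a postsynaptic partner of heparan sulfate proteoglycans, measured 50.7, 46.9 and 43.3 CPM in NS and 40.1, 39.6 and 39.0 CPM in WS, a log2 ratio of -0.25. Its WS libraries were nearly equal while NS varied. Cntn6, a contactin of axons, measured 25.2, 23.4 and 21.6 CPM in NS and 18.4, 19.9 and 21.2 CPM in WS (log2 ratio -0.24).

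The other 4 adhesion genes were Epha7 and Adgrb3, both at -0.17, C1ql3 at -0.17 and Slitrk3 at -0.16. C1ql3 is a secreted ligand of Adgrb3, and both encode proteins that organise excitatory synapses. C1ql3 measured 150.4, 133 and 132 CPM in NS and 121, 127 and 120.0 CPM in WS, while Adgrb3 measured 97.6, 89.1 and 84.7 CPM in NS and 77.3, 80.5 and 82.8 CPM in WS. NS replicate 1 was the highest library for both. C1ql3 was outside the fixed rule for naming and was chosen after its values were seen.

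Of 43 genes of synaptic vesicles and exocytosis, 7 were in the group and 31 had a ratio below 0. They were Syt17 (log2 ratio -0.23), Rab26 (-0.20), Sv2b (-0.19), Syt14 (-0.17), Exoc6 (-0.16), Napg (-0.14) and Syt16 (-0.12). These encode synaptotagmins, a vesicle GTPase, a vesicle glycoprotein, an exocyst subunit and a SNARE recycling factor. Syt17 measured 76.5, 59.1 and 59.7 CPM in NS and 58.6, 56.8 and 51.3 CPM in WS, with NS replicate 1 well above the other libraries. Syt14, Syt16 and Syt17 made up 3 of 15 synaptotagmins of sufficient count. The family's median was -0.033, or -0.054 with the trend on GC content and length removed. Exoc6 and Napg were named after their values were seen.

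Among 36 genes of glutamate, GABA and glycine receptors and their Homer scaffolds, 2 were in the group. Gria3, an AMPA receptor subunit, measured 230.4, 222 and 223 CPM in NS and 183, 204 and 221 CPM in WS (log2 ratio -0.15), with WS replicate 3 nearly level with NS replicate 2. The other AMPA subunits were at -0.0023 for Gria1, -0.10 for Gria2 and -0.00092 for Gria4. Homer1, a scaffold of the postsynaptic density, had an equally narrow separation, with 175, 176 and 175 CPM in NS and 142, 156 and 173.5 CPM in WS (log2 ratio -0.16).

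The pathway of nitric oxide and cyclic GMP contributed 3 of 14 genes of sufficient count, at a list median of -0.081. Gucy1b1 encodes the beta subunit of soluble guanylate cyclase, the receptor of nitric oxide. It measured 223, 228 and 204 CPM in NS and 182, 193 and 192 CPM in WS, a log2 ratio of -0.21. Its partner Gucy1a1 had a log2 ratio of -0.14 but overlapped, since WS replicate 2 at 92.8 CPM exceeded NS replicate 3 at 84.7 CPM. Downstream of the cyclase, the kinase Prkg2 was at -0.19 and the phosphodiesterase Pde1a at -0.19. Pde1a measured 278, 302 and 271 CPM in NS and 216, 264 and 268 CPM in WS. By edgeR, Pde1a went from -0.18 to -0.10 without WS replicate 1, and Prkg2 from -0.18 to -0.12 without NS replicate 1. Prkg1, the other kinase of the pathway, was at -0.21 with overlapping groups.

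Potassium channel genes contributed Kcnt2, a sodium-activated channel, at a log2 ratio of -0.22, and Dpp10, an auxiliary subunit of Kv4 channels, at -0.17. By edgeR, Kcnt2 went from -0.22 to -0.12 without WS replicate 1. Kcnt2 was the only 1 of 64 potassium channel genes named by symbol in the group, and that family's median was 0.0050, or -0.020 with the trend on GC content and length described below removed. Activin receptors contributed Acvr1c, at -0.27, and Acvr1b, at -0.17. Acvr1c measured 13.6, 14.4 and 13.9 CPM in NS and 9.03, 13.4 and 12.4 CPM in WS, with WS replicate 1 far below the others. The 13 activin and TGF-beta receptor genes had a median of -0.048, or -0.015 with the trend on GC content and length removed.

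Genes of ribosome assembly made up 5 of 61, and 50 of the 61 had a ratio below 0, at a median of -0.073. Besides Lyar they were Utp18 and Ngdn, processome factors of the small subunit, Ddx51, a helicase of the large subunit, and Fbl, the methyltransferase fibrillarin of box C/D particles. Utp18 measured 15.1, 17.4 and 16.7 CPM in NS and 13.4, 13.1 and 14.9 CPM in WS, a log2 ratio of -0.25. All 9 UTP genes of sufficient count had a ratio below 0, between -0.25 and -0.021, though Utp18 was the only 1 in the group. Fbl, at -0.17, was named after its values were seen.

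Nuclear transport contributed 6 of 40 genes. Kpna1 and Kpna2 encode importin alpha proteins, which carry cargo with a nuclear localisation signal. Kpna1 measured 177, 181 and 180.3 CPM in NS and 142, 164 and 172 CPM in WS, a log2 ratio of -0.17, and Kpna2 was at -0.15. All 5 importin alpha genes had a ratio below 0, with a median of -0.14, or -0.090 with the trend removed, when 1 of the 2 met the conditions. Tmem209 (-0.22), Rangrf (-0.19), Seh1l (-0.16) and Lemd3 (-0.15), genes of the nuclear envelope, Ran binding and the nuclear pore, were the others of that list. Ipo11 (-0.13), an import receptor outside the list, was 1 of 17 genes of the importin beta family. Lemd3 and Ipo11 were named after their values were seen. Splicing and snRNP assembly contributed 3 of 46, namely Prpf31 (-0.21), Gemin5 (-0.21) and Taf15 (-0.19). The aminoacyl-tRNA synthetases contributed Dars (-0.18), Tarsl2 (-0.17) and Farsb (-0.15), 3 of 38, at a list median of -0.012.

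Factors of mitochondrial gene expression and assembly gave 15 of 41, but many were put in the list because they were known to be lower. Nsun4, an RNA methyltransferase of the mitochondrial ribosome, measured 11.9, 12.2 and 11.9985 CPM in NS and 9.03, 9.96 and 11.2 CPM in WS (log2 ratio -0.26). Aifm1, a flavoprotein of the intermembrane space needed for respiratory complexes, measured 18.9, 19.7 and 21.1 CPM in NS and 16.8, 16.4 and 17.4 CPM in WS (log2 ratio -0.23). Its WS values lay close together and its NS values less so. Sdhaf4, an assembly factor of complex II, was at -0.23. Mitochondrial families complete by symbol showed no such share. Mrps31 (-0.19) and Mrps18a (-0.13) were 2 of 78 mitochondrial ribosomal protein genes, with a family median of -0.036, or -0.013 with that trend removed. Slc25a14 (-0.20) and Slc25a16 (-0.13) were 2 of 34 mitochondrial carriers, with a median of -0.0042, or -0.011 with that trend removed.

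Among 60 genes of the endoplasmic reticulum, secretion and glycosylation, 9 were in the group and 45 had a ratio below 0. Mbtps2, the protease that releases SREBP and ATF6 in the Golgi, measured 33.8, 36.3 and 30.9 CPM in NS and 25.6, 27.3 and 30.7 CPM in WS, a log2 ratio of -0.27. Its NS replicate 3 and WS replicate 3 lay side by side. Besides Mbtps2 and Prdx4, they included Dsel, an epimerase of dermatan sulfate, at -0.20.

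The lysosomal pathway contributed Atp6v1a and Atp6v1h, 2 of 16 subunits of the vacuolar proton pump, and Rraga and Rragb, 2 of 4 Rag GTPases, which bring mTORC1 to the lysosome. Atp6v1a measured 534, 530.3 and 488 CPM in NS and 426, 477 and 487 CPM in WS, with WS replicate 3 at the level of NS replicate 3. Rraga measured 110.1, 108 and 109 CPM in NS and 89.0, 106 and 96.7 CPM in WS (log2 ratio -0.17), and Rragb was at -0.14. The other Rag genes, Rragc and Rragd, were at -0.037 and -0.12, and both overlapped between groups. Autophagy genes gave 3 of 16, Atg10 (-0.23), Atg5 (-0.14) and Atg12 (-0.12). By edgeR, Atg10 went from -0.23 to -0.11 without NS replicate 1. Atg10 and Atg5 act in the conjugation of Atg12, yet the family's median was -0.019.

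Actin genes contributed Actr2, Actr3 and Actr3b, 3 of 15 genes of the Arp2/3 complex and its relatives, with 13 of the 15 below 0 and a median of -0.062. Actr2 measured 303.5, 291 and 285 CPM in NS and 238, 283 and 284 CPM in WS (log2 ratio -0.13), and WS replicate 1 was the low library. Actr3 was at -0.12, Actr3b at -0.15, and the Arpc2 and Arpc3 subunits at -0.062 and -0.036. Replication and mitosis genes gave 7 of 39, and beside Rfc5 and Mad2l1bp they included Inip (-0.20), of a single-strand DNA binding complex. Zinc finger genes of the Zfp and Zbtb families gave 4 of 296 (1.35%), and 7 of 296 (2.36%) with the trend removed. The 4 were Zfp667 (-0.25), Zbtb9 (-0.24), Zfp128 (-0.23) and Zbtb11 (-0.16).

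Over all marker lists, 3 of 114 markers of sufficient count were in the group (2.63%, against 2.10% of all genes). The deep layer transcription factor Fezf2 measured 51.1, 56.3 and 50.9 CPM in NS and 43.0, 45.8 and 50.7 CPM in WS, a log2 ratio of -0.18, with replicate 3 of both groups at the same level. Rprm, a marker of layer 6 neurons, measured 59.9, 57.8 and 58.2 CPM in NS and 48.4, 53.5 and 51.9 CPM in WS, a log2 ratio of -0.19. These were 2 of 16 deep layer markers of sufficient count, whose median was -0.011, or -0.0047 with the trend removed. Foxp2, another of the 16, was at 0.23. Irf8, a transcription factor of microglia, was at -0.27 and was the only 1 of 9 microglial markers in the group, while Tmem119, also of microglia, was at 0.23. Irf8 was named after its values were seen.

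The other marker lists held no gene of the group, but each had at most 15 genes of sufficient count, too few for a share of 2.10% to show. The medians were -0.013 for excitatory neurons (-0.038 with the trend on GC content and length removed), 0.049 for upper layers (-0.022 with it removed), 0.12 for interneurons, 0.13 for astrocytes, 0.19 for oligodendrocytes, 0.13 for their precursors (0.082 with it removed), 0.071 for microglia, 0.086 for endothelium, 0.098 for pericytes and 0.13 for striatum. All 10 astrocyte and all 9 oligodendrocyte markers of sufficient count had a ratio above 0. The highest astrocyte ratio, 0.59, was that of Gja1, with 187, 192 and 21.7 CPM in NS and 184, 184 and 236 CPM in WS. Its NS replicate 3 stood far below the other libraries. Summed oligodendrocyte markers ranged from 8741 to 12464 CPM in NS and from 10113 to 14009 CPM in WS, and summed astrocyte markers from 4614 to 5087 and from 4840 to 6001 CPM. Since CPM are shares of a total, these values stand beside all of the lower genes, and their part in them was not tested. Choroid plexus markers, of which 9 of 10 were listed, had a median of -0.15, and their sums ranged from 495 to 893 CPM in NS and from 297 to 1018 CPM in WS. They stand beside the cilium gene Ccdc65, and their part in its value was not tested.

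**Figure D3:**
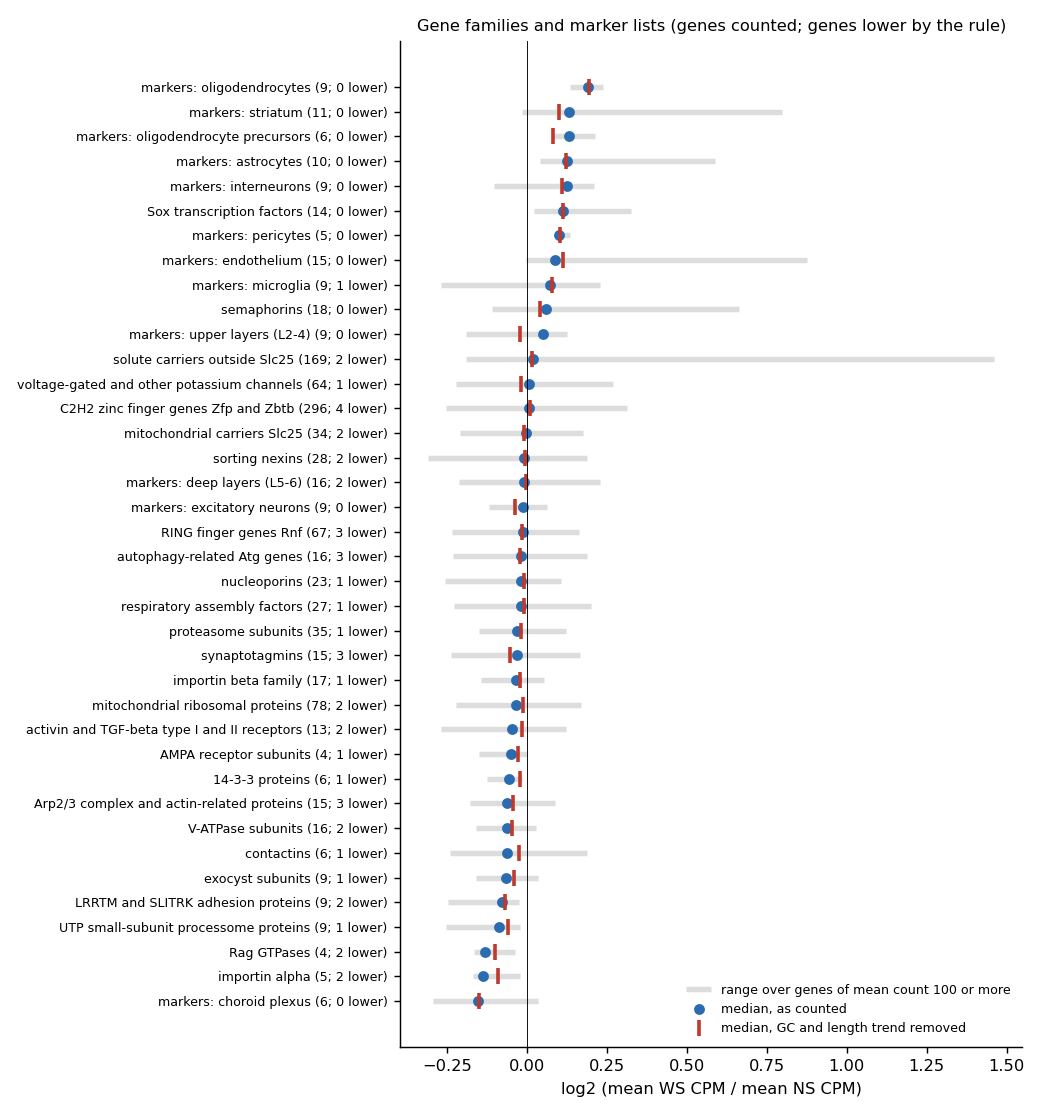
Median log2 ratio of WS to NS CPM (horizontal axis) for gene families and marker lists, sorted by value. Blue dots are medians as counted, red bars medians with the trend on GC content and length removed, grey bars the range over genes of mean count 100 or more, and the labels give the genes counted and those in the lower group. Importin alpha and Rag GTPases lie lowest among families, at -0.14 and -0.13, and glial markers lie above 0.

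The plot of families shows that most family medians lie within 0.1 of 0, close to the median over all genes. Families were complete by symbol but were picked after values were seen.

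The 3 same-numbered pairs did not contribute equally. The median log2 ratio of the 228 genes was -0.25 for replicate 1, -0.11 for replicate 2 and -0.13 for replicate 3. WS replicate 1 was the lowest WS library for 136 of the 228 genes, WS replicate 3 for 64 and WS replicate 2 for 28. Over all 10875 genes of sufficient count, these numbers were 5016, 3763 and 2096 in the same order. NS replicate 1 was the highest NS library for 104 of the 228 genes, NS replicate 3 for 64 and NS replicate 2 for 60. Over all genes of sufficient count, these numbers were 3274, 3944 and 3657 in the same order. Relative to the NS mean, the median of the 228 genes was -0.21 in WS replicate 1, -0.12 in WS replicate 2 and -0.14 in WS replicate 3, while over all genes of sufficient count it was -0.030, 0.0015 and 0.011. Without WS replicate 1, 141 of the 228 genes still met the conditions.

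A property that the choice did not use was the base composition of the transcripts. The longest transcript of the 227 genes with a GENCODE M21 entry had a median GC content of 46.2%, against 49.9% over all genes of sufficient count and 54.7% for the genes higher by the mirrored rule. Of the 227, 178 (78.4%) lay under 50% GC, against 50.6% of all genes and 19.7% of the mirrored set. Kcnt2 (36.6%), Snx7 (37.5%), Lrrtm4 (38.4%) and Gpm6a (39.0%) were among the low ones, while Ovol2, Rprm and Fezf2 had between 55.9% and 56.2%. Transcript length differed less, with a median of 3468 bases against 3665.

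Levels in single libraries also followed GC content over all genes. In WS replicate 1 the median deviation from the NS mean went from -0.24 in the sixth of genes with the lowest GC content to 0.17 in the sixth with the highest. WS replicate 3 went the other way, from 0.093 to -0.046, and WS replicate 2 went from -0.014 to 0.036. The share of genes in the lower group was 3.04% and 3.92% in the 2 groups of lowest GC content and 0.331% in the highest, while the mirrored share went from 0.552% to 4.81%. With transcript length, WS replicate 1 went from 0.061 for the shortest sixth to -0.12 for the longest and WS replicate 3 from -0.076 to 0.13.

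**Figure D4:**
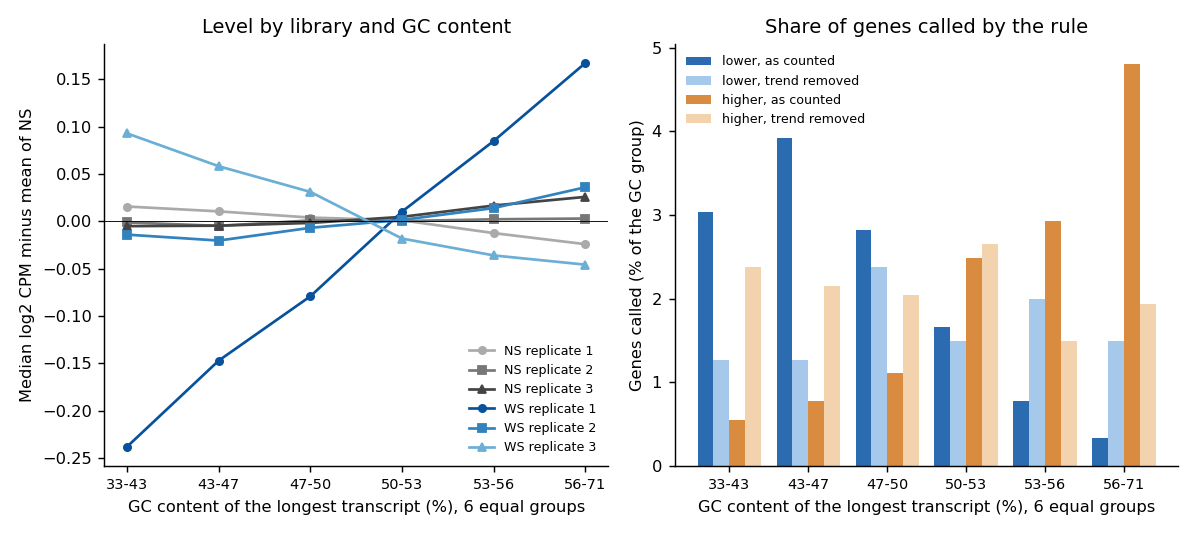
Left, median log2 CPM relative to the NS mean in each library (vertical axis) for 6 equal groups of genes by GC content of the longest transcript (horizontal axis, percent). Right, percent of genes in each GC group called lower (blue) or higher (orange) by the rule, as counted (dark) and with the trend on GC content and length removed (light). WS replicate 1 runs from -0.24 to 0.17, and the dark blue bars drop from 3.92% to 0.331% while the light blue bars stay between 1.27% and 2.38%.

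The plot by GC content sets the library trend beside the share of genes called. When the trend on GC content and length was removed from each library, a step chosen after the data were seen, 180 genes met the conditions (1.66%), and 98 of the 228 were among them (43.0%). Pacrgl, which had no GC content and kept its values, is counted in the 98. Of the mirrored set, 117 of 229 (51.1%) were kept. The step moved no log2 ratio of the 228 by more than 0.075, so all stayed below 0, with a median of -0.14. Among the genes described, Ovol2 (-0.39), Enc1 (-0.20), Sv2b (-0.17), Aifm1 (-0.20) and Nsun4 (-0.25) met the conditions, while Gpm6a (-0.10), Mef2c (-0.10), Gria3 (-0.11) and Homer1 (-0.11) did not pass the limit of -0.12. Gucy1b1 (-0.16), Lrrtm4 (-0.18), Fezf2 (-0.21) and Rprm (-0.21) passed it but overlapped between groups.

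**Figure D5:**
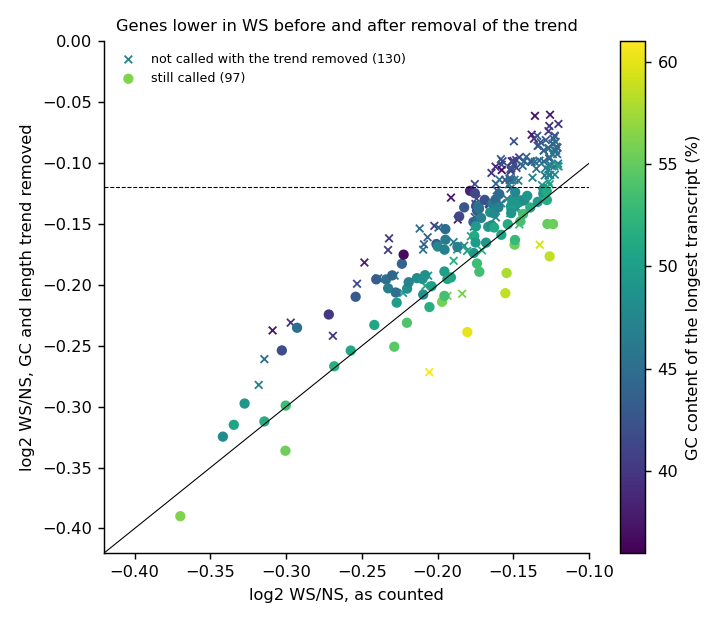
Log2 ratio of WS to NS with the trend on GC content and length removed (vertical axis) against the ratio as counted (horizontal axis) for the 227 genes with a GC content, coloured by GC content in percent. Dots met all conditions after removal (97), crosses did not (130), the dashed line is the limit of -0.12 and the solid line marks equal values. Dark points of low GC content lie above the line and light points of high GC content below it, and all points stay below 0.

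The plot of ratios before and after removal shows that genes of low GC content moved toward 0 and those of high GC content away from it. A smaller set of 53 genes met the conditions as counted, with the trend removed, under either other scaling and with any 1 library left out. Its median GC content was 48.8%, and it held Ovol2, Zbed5, Ccdc65, Lyar, Rfc5, Mbtps2, Nsun4, Cntn6, Aifm1, Gemin5, Ddx51, Rab26, Mrps31, Enc1 and Sv2b among others.

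On chromosome 5 lay 23 of the 228 genes (10.1%), against 6.53% of all genes of sufficient count and 6.11% of the mirrored set. On chromosome X lay 9 (3.95%), against 3.35% of all and 0 of the 229 in the mirrored set. These shares were not tested. An annotated gene on the opposite strand overlapped 97 of them (42.5%), against 46.1% of all, and for these the reads of both strands cannot be told apart because strand use in counting is not stated. Of the 228, 226 were protein coding.

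The test across all genes called none of the 228. With edgeR's quasi-likelihood test and Benjamini-Hochberg adjustment over 13747 genes, 0 genes were lower in WS at an adjusted p under 0.05, and 45 were lower at an unadjusted p under 0.05 (0.327%). DESeq2 also called 0 lower, with 17 lower at an unadjusted p under 0.05. Higher in WS were 5 genes by edgeR (0.0364%) and 8 by DESeq2, and 119 were higher at an unadjusted edgeR p under 0.05 (0.866%). The lowest adjusted p among the 228 was 0.9998 by edgeR. Their differences had a median of 2.08 times the pooled SD of log2 CPM, in groups of 3 whose spread the choice of separated genes makes small.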

How the data were processed

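Bulk RNA was sequenced from 3 NS and 3 WS samples of S1 cortex by the authors on a DNBseq platform. Per the methods, the authors aligned filtered reads with HISAT2. The labels name the build mm10, and the counting tool is not given in the sources used here. For each gene the authors deposited the mean over 6 libraries as an estimated count with its SD. The authors also deposited the score of each library, a z-score made by subtracting that mean and dividing by that SD. Columns of the authors' own comparison were not used. Counts were computed back as mean plus z-score times SD and rounded for tests. The design had assumed counts or FPKM. In 13415 genes with a rounding uncertainty under 0.1 count, 88.5% of values came out whole, against 4.57% by chance, and for genes with a mean of 100 or more the uncertainty was at most 0.0748% of the mean. CPM used the sum over listed genes, between 15660389 and 17276169 per library, and counting error falls as counts rise. No pair of libraries agreed within sampling noise, with a lowest chi-square of 4.49 per degree of freedom.

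All genes were tested with edgeR 4.0.16 (TMM, filterByExpr, quasi-likelihood) in R 4.3.3, with DESeq2 1.42.0 as an alternative and Benjamini-Hochberg adjustment. On counts simulated for 13747 genes of this comparison, with 200 changed by a log2 fold of 1 to 2, edgeR recovered 92% of those under 1.5 and 97% of the others, and 6.90% of its calls were false. Changes as small as those described here were not simulated. GC content, length and positions came from GENCODE M21 on GRCm38, and promoters from RefSeq. The GC and length trend was removed per library by lowess (span 0.3, 2 rounds, statsmodels 0.14.6). Python 3.11.15 was used. The labels and methods do not tie single NS and WS libraries to mice, and the same-numbered ones may be the sides of 1 brain, so p-values measure the spread between these samples. The genes, lists, families and motifs were chosen with earlier results of these data known, and the functional lists after the study's own table of lower genes had been read. Named were the 12 lowest ratios, the 10 highest mean counts, up to 4 genes of each list with 2 or more in the group, paralog and subunit partners, and 3 genes on each side of the limit. Some genes that this rule names are not reported here.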

Additional observations from a re-analysis of the deposited data

How the results depend on the processing

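The number of lower genes (228 as counted) stayed within 1.5 times under TMM scaling (209, of which 191 were shared), DESeq2 size factors (225, 202 shared), a minimum mean count of 50 (251) or 200 (191) or none (332), a limit of -0.08 (339), and removal of the GC and length trend (180, 98 shared). It was 53 at a limit of -0.2 and 379 without a limit. Leaving out 1 library gave from 331 genes (without NS replicate 1) to 946 genes (without WS replicate 3). Fewer libraries are easier to separate, so these counts are not like for like with 228. The reason for the spread among them was not tested. Without WS replicate 1, 401 genes met the conditions, 141 of them shared, and with the trend removed as well, 548, of which 155 were shared. These removals of the trend were added after the data were seen.

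Across all genes, lower calls by edgeR stayed at 0 with DESeq2 size factors, no normalization beyond the library total, no filter and the replicate block, and DESeq2 gave 0. They ranged from 0 to 1 with 1 library left out (Fam205a4, without WS replicate 3), and 45 were lower at an unadjusted p under 0.05. Higher calls, 5 in number, became 8 by DESeq2, 11 with the replicate block, 0 to 9 with 1 library left out and 119 at an unadjusted p under 0.05. Requiring WS below NS in each same-numbered pair, the replicate block of the rule, gave 405 genes. Deviations of same-numbered libraries correlated at 0.384, 0.36 and 0.069 for replicates 1, 2 and 3 over 10875 genes, and WS replicate 3 correlated better with NS replicate 2 (0.103) than with NS replicate 3. In the study's paradigm NS was the unstimulated side of stimulated mice, but no source says that equal numbers mark the same mouse, and not every pair correlated above 0.1, so fits without the block were kept and whether the numbers pair the libraries remains unknown.

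The median edgeR log2 fold change of the 228 genes was -0.16, and -0.18 to -0.15 with 1 library left out, a range that the choice of genes fixes. The 810 values of the 90 named genes under the alternatives kept their direction, which the choice of genes likewise fixes, and none passed the threshold, with a lowest adjusted p of 0.884. Leaving out 1 library moved the log2 fold change of 35 of the 90 by over 1.5 times, at most to -0.058, and the value nearest 0 came without WS replicate 1 for 15, NS replicate 1 for 12, WS replicate 3 for 6, and WS replicate 2 or NS replicate 3 for 1 each. Depth limits genes near 100 counts most. RNA integrity per library is not given in the sources used here, and per the methods an RNA integrity number above 2 sufficed for a sample to qualify.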
